A study of Homo sapiens with 8 samples.

Results

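The experiment is the serum response of HCT116 cells in which CDK8 was knocked down. HCT116 is an established human colon cancer epithelial line. The comparison set the 2 arrays of shCDK8 cells given serum for 30 min against the 2 arrays of shCDK8 cells left starved, 4 of the 8 arrays of the series, across all 18417 genes that could be named. All groups were starved of serum for 40 h in McCoy's 5A medium, and the serum groups then received the same medium with 10% fetal bovine serum. The other 4 arrays were the same starved and serum conditions in HCT116 cells expressing a control hairpin, shControl. Each line carried 1 short hairpin, so the label shCDK8 stands for a single knockdown, and the labels do not say whether duplicates were separate cultures, so the p-values measure the spread between these arrays, which may be technical.

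CDK8 is the cyclin-dependent kinase of the Mediator kinase module, a detachable part of the coactivator complex that links transcription factors to RNA polymerase II. Serum growth factors act through receptor tyrosine kinases and the RAS to ERK cascade on factors already present in the cell, among them serum response factor with its ETS-family partners and the CREB proteins. Their targets, the immediate-early genes, are transcribed within minutes without new protein synthesis and encode further transcription factors, secreted proteins and inhibitors of the same cascade.

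Values were log2 array levels, so a difference of 1 is a 2-fold change, and all differences below are serum minus starved unless stated otherwise, each with its standard error (SE). The probe set for CDK8, which also matches ADRA1B, read 9.23 and 9.20 in starved shControl cells and 7.09 and 6.99 in starved shCDK8 cells, 4.53-fold lower. After serum it read 7.04 and 7.06 in shCDK8 cells, 4.45-fold below shControl, and serum changed it by 0.01 ± 0.07. CDK8 probe signal was thus low on all 4 shCDK8 arrays, with no overlap with shControl. Duplicate arrays correlated at r = 0.9972 to 0.9979 across genes, and array medians lay between 7.07 and 7.11. Of 12 markers of colonic epithelium, the mean starved level ranged from 4.96 to 12.70 with a median of 8.48. The 10 mesenchymal markers had a median of 5.43, with COL1A1 highest at 8.04 and 7.95, and the 11 blood and endothelial markers had a median of 5.11. No marker of these 3 lists passed the test in shCDK8 cells.

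The promoters of 6 of the genes that rose are shown first, because each carries sequence motifs of those marked below. The windows were the 150 bases before the start site (build GRCh38.p14, RefSeq), 5′ to 3′ on the strand of the gene. They were chosen after the motif matches were seen. Capitals mark TATA boxes (TATAAA), the core of the cAMP response element (TGACG, or its reverse complement CGTCA, which lies within the full element TGACGTCA) and CArG boxes, the binding sequence of serum response factor. The windows lie at chr14:75278678-75278827 (plus strand) for FOS, chr19:45467846-45467995 (plus) for FOSB, chr19:12791336-12791485 (plus) for JUNB, chr5:138465329-138465478 (plus) for EGR1, chr6:43171119-43171268 (plus) for SRF, 1 of its 2 windows, and chr5:172771196-172771345 (minus) for DUSP1.
FOS: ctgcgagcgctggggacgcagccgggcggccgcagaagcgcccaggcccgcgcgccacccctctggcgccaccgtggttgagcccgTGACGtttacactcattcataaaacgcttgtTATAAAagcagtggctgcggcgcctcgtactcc
FOSB: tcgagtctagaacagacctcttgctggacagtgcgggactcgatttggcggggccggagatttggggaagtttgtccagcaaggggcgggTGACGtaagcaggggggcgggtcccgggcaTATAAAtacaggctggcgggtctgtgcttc
JUNB: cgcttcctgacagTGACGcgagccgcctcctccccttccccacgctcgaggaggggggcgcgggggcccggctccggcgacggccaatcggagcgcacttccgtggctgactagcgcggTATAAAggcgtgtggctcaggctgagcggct
EGR1: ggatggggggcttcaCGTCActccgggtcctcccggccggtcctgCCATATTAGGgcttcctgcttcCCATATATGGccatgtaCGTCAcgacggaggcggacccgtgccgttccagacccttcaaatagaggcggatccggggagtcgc
SRF: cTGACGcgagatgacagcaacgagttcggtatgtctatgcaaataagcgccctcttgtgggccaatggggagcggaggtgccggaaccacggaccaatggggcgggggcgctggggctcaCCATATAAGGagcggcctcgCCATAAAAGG
DUSP1: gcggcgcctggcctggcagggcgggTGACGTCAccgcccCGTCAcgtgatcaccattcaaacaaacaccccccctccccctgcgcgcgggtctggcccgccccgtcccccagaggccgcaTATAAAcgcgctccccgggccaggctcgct
FOS has the TATA box at -33 to -28 and the cAMP element core at -64 to -60. FOSB has the same pair at -30 to -25 and at -60 to -56, and JUNB has its TATA box at -31 to -26. EGR1 has 2 CArG boxes, at -105 to -96 and -83 to -74, and SRF has 2, at -30 to -21 and -10 to -1. DUSP1 has a full cAMP response element at -125 to -118 and a TATA box at -30 to -25.

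A promoter window of 300 bases (250 before the start and 50 after) was matched to 36 of the 46 genes that rose and to 14239 of all genes tested. CCN1, DUSP4, DUSP5, EGR3, GEM, MCL1, NR4A2, RNVU1-15, RNVU1-19 and TRIB1 had no window in the table. Matches were counted on both strands, and sites outside the windows were not searched. The TATA box letters TATAAA stood in 14 of the 36 genes (38.9%) and in 11.9% of all genes with a window. A match at any position counted, so not all lay close before the start, as at -230 to -225 in ATF3. The full cAMP response element was found in 3, AVPI1, DUSP1 and SLC25A25 (8.33% against 3.1%), and its core, which overlaps it, in 20 (55.6% against 35.1%). CArG boxes were found in EGR1 and SRF (5.56% against 1.7%). The GC box GGGCGG was present in 30 (83.3% against 65.9%) and the EGR site GCGNGGGCG, which can overlap a GC box, in 8 (22.2% against 16.2%). The E-box CACGTG was found in 6 (16.7% against 10.9%), the TEAD site GGAATG in 7 (19.4% against 15.5%) and the CCAAT box in 16 (44.4% against 42.2%). The kappaB site was found in 3 (8.33% against 8.52%). The ETS site CCGGAAG was found in 3 (8.33% against 16.8%) and the AP-1 site TGANTCA in 1, CXCL8 (2.78% against 8%). The shares are descriptions of letters in these windows, and no test was made of them.

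**Figure D1:**
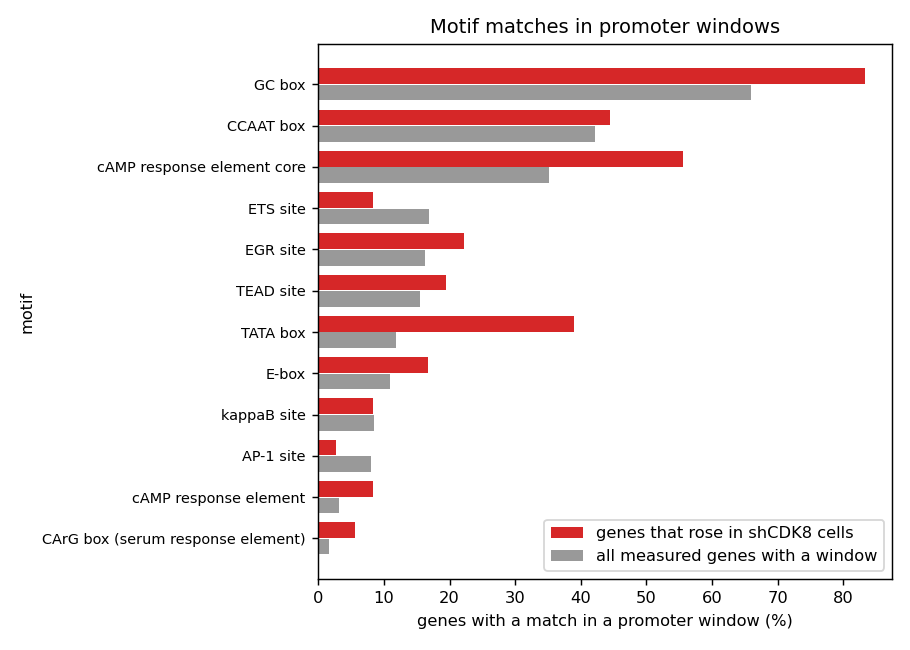
Share of genes, in percent, with at least 1 match of each motif in a promoter window of 300 bases: the 36 genes with a window that rose with serum in shCDK8 cells (red) and all 14239 genes with a window (grey). The TATA box (38.9% against 11.9%) and the cAMP response element core (55.6% against 35.1%) have the widest gaps in the direction of the genes that rose, and the ETS site is less frequent in them.

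Serum for 30 min raised a small set of genes in shCDK8 cells, led by AP-1 subunits, the matricellular gene CCN1 and the NR4A receptors. At an adjusted p below 0.05, 46 genes rose (0.25% of those tested) and 1 fell (0.00543%). The rise reached at least 2-fold for 22 genes (0.119% of all tested) and exceeded 4-fold for 10, which were FOS, CCN1, FOSB, NR4A2, ATF3, NR4A3, NR4A1, DUSP1, JUN and EGR1. The smallest rise that passed was 0.41, and the median rise was 0.956. Over all genes the median change was -0.01. In each of the 46 both serum arrays lay above both starved arrays, a separation that 19.1% of all genes showed. The 46 were picked on these same arrays, so their separation, here and gene by gene below, adds no support to the calls. At an unadjusted p below 0.05 there were 1766 genes (9.59%), of which 818 were higher and 948 lower after serum.

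The size of the set changed when single shCDK8 arrays were left out. Each such fit leaves 1 array in a group, so lost precision and dependence on that array cannot be told apart. The 47 genes became 23 without starved array 1, 25 without starved array 2, 24 without serum array 2 and 51 without serum array 1. Leaving out 1 array at a time, 22 genes kept the threshold throughout: ATF3, BHLHE40, CCN1, CCN2, CSRNP1, DUSP1, DUSP2, DUSP5, EGR1, EGR3, FOS, FOSB, IER2, JUN, JUNB, KLF6, NR4A1, NR4A2, NR4A3, THBS1, TRIB1 and ZFP36. The other 25 lost it without at least 1 array, and all 47 kept their direction.

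**Figure D2:**
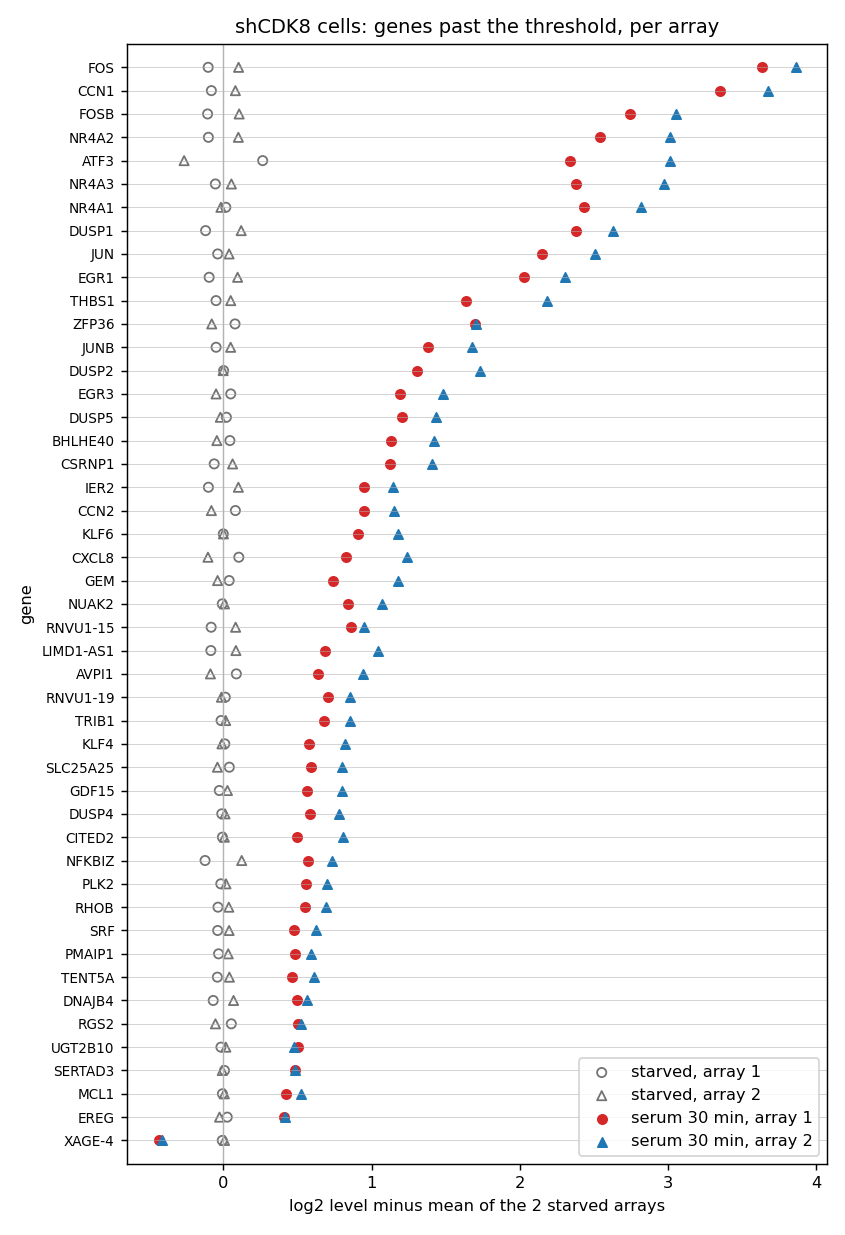
Log2 level on each shCDK8 array minus the mean of the 2 starved arrays (x axis), for the 47 genes past the threshold, sorted by change. Open symbols are the starved arrays and filled symbols the serum arrays (circles array 1, triangles array 2). FOS and CCN1 lead, XAGE-4 is the only gene to the left, and for most genes the triangle of serum array 2 stands to the right of the circle of serum array 1.

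The 5 lists of immediate-early regulators (AP-1, EGR, NR4A, Kruppel-like and other regulators) held 59 measured genes, of which 18 rose and 0 fell, against 0.25% of all genes rising. Their median change was 0.261. In the AP-1 list, 5 of 16 rose: FOS, FOSB, JUN, JUNB and ATF3, the basic leucine zipper subunits that pair to bind AP-1 and related sites.

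FOS read 7.42 and 7.63 on the starved arrays and 11.16 and 11.39 on the serum arrays. Its groups stood far apart, with the lowest serum array well above the highest starved array. The change was 3.74 ± 0.10, or 13.4-fold (adjusted p = 2.33e-07), the largest of any gene tested.

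FOSB, a close relative of FOS, went from 7.64 and 7.85 to 10.48 and 10.80, a change of 2.90 ± 0.11 (7.45-fold, adjusted p = 2.23e-06). JUN, their usual partner, went from 7.28 and 7.36 to 9.47 and 9.83, a change of 2.33 ± 0.12 (5.03-fold, adjusted p = 1.1e-05). JUNB went from 8.69 and 8.79 to 10.12 and 10.41, a change of 1.53 ± 0.10 (2.88-fold, adjusted p = 5.74e-05). For all 3 genes the starved and serum arrays did not overlap, and serum array 2 was the higher of its pair.

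ATF3, a stress-induced repressor and AP-1 partner, read 6.71 and 6.18 before serum and 8.78 and 9.46 after it. Its duplicates were the least alike of any gene that rose in this list, yet the groups stayed apart. The change was 2.68 ± 0.21 (6.39-fold, adjusted p = 0.00038). The median of the 11 members of the list that did not pass was 0.0973. FOSL2, another FOS relative and named after its values were seen, changed by 0.70 ± 0.12 (adjusted p = 0.0832).

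Of the EGR factors and their NAB corepressors, 2 of 5 rose. EGR1, a zinc finger factor and a standard marker of ERK signalling, went from 9.19 and 9.38 to 11.31 and 11.59, a change of 2.17 ± 0.10 (4.49-fold, adjusted p = 6.02e-06). EGR3 went from 6.10 and 6.0 to 7.24 and 7.53, a change of 1.34 ± 0.12 (2.53-fold, adjusted p = 0.00106). Both pairs of groups were clear of each other. EGR4 changed by -0.11 ± 0.07 and the corepressors NAB1 and NAB2 by 0.14 ± 0.09 and 0.02 ± 0.06, and none of these passed. For EGR2 no value was used.

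All 3 NR4A genes rose, and by nearly equal amounts. These orphan nuclear receptors act without a known hormone and are regulated mainly through their transcription. NR4A2 went from 8.10 and 8.30 to 10.74 and 11.21, a change of 2.77 ± 0.14 (6.84-fold, adjusted p = 8.21e-06). NR4A3 went from 5.41 and 5.52 to 7.85 and 8.44, a change of 2.67 ± 0.15 (6.38-fold, adjusted p = 2.71e-05). NR4A1 went from 7.42 and 7.38 to 9.83 and 10.22, a change of 2.62 ± 0.11 (6.17-fold, adjusted p = 2.73e-06). In each, serum array 2 stood above serum array 1 by more than the starved arrays differed.

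Of 12 Kruppel-like factors, 2 rose. KLF6, a zinc finger factor of the early growth response, went from 9.38 and 9.38 to 10.28 and 10.56, a change of 1.04 ± 0.09 (2.06-fold, adjusted p = 0.000746). KLF4, a factor of epithelial differentiation in the gut, went from 8.19 and 8.18 to 8.76 and 9.01, a change of 0.70 ± 0.10 (1.62-fold, adjusted p = 0.0183). The starved duplicates were almost identical for both genes. KLF10 changed by 0.26 ± 0.06 and KLF3 by 0.27 ± 0.08, and neither passed.

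Among 23 other immediate-early regulators, 6 rose. BHLHE40, a basic helix-loop-helix repressor that also belongs to the circadian clock, went from 8.59 and 8.50 to 9.68 and 9.97, a change of 1.28 ± 0.11 (2.42-fold, adjusted p = 0.000702). CSRNP1, a nuclear protein, went from 7.47 and 7.59 to 8.66 and 8.94, a change of 1.27 ± 0.10 (2.4-fold, adjusted p = 0.000323). IER2 went from 9.23 and 9.43 to 10.28 and 10.48, a change of 1.05 ± 0.09 (2.07-fold, adjusted p = 0.000561). Groups did not overlap in any of these 3.

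Smaller rises were seen for CITED2, a CBP and p300 binding protein (0.65 ± 0.10), for RGS2, an inhibitor of G protein signalling (0.52 ± 0.07), and for MCL1, an antiapoptotic BCL2 relative (0.47 ± 0.07), with adjusted p of 0.0435, 0.0214 and 0.0217. RGS2 went from 6.76 and 6.65 to 7.21 and 7.23. Of the 23 genes in the list, 20 had both serum arrays above both starved arrays, against 19.1% of all genes, and 6 passed. MYC, named after its values were seen, is on this footing: it went from 11.30 and 11.32 to 11.52 and 11.54, a change of 0.22 ± 0.06 (adjusted p = 0.397), with groups that did not overlap.

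Of 29 measured secreted and growth factor genes, 6 rose. CCN1 (CYR61), a matricellular integrin ligand, went from 6.91 and 7.07 to 10.34 and 10.66, a change of 3.51 ± 0.10 (11.4-fold, adjusted p = 2.48e-07). Its serum arrays were far above its starved arrays, second only to FOS in fold. CCN2 (CTGF), its paralogue, went from 7.36 and 7.20 to 8.23 and 8.43, a change of 1.05 ± 0.08 (2.07-fold, adjusted p = 0.000396). THBS1, which encodes the matrix protein thrombospondin, went from 7.71 and 7.81 to 9.39 and 9.95, a change of 1.91 ± 0.14 (3.75-fold, adjusted p = 0.000246). The spread of the THBS1 serum pair was wide, but its lower array was still clear of both starved arrays.

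CXCL8, the neutrophil chemokine interleukin-8, went from 6.17 and 5.96 to 6.89 and 7.30, a change of 1.03 ± 0.13 (2.04-fold, adjusted p = 0.0102). GDF15, a stress-induced member of the TGF-beta superfamily, changed by 0.68 ± 0.10 (adjusted p = 0.0256). EREG, an EGF receptor ligand, was already at 11.20 and 11.15 in starved cells and read 11.58 and 11.59 after serum, a change of 0.41 ± 0.06 (adjusted p = 0.0332), the smallest rise that passed.

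Feedback on the MAP kinase cascade was represented by 4 of 23 measured genes, all of them dual-specificity phosphatases, which remove phosphate from MAP kinases. DUSP1 went from 8.33 and 8.57 to 10.83 and 11.07, a change of 2.50 ± 0.10 (5.67-fold, adjusted p = 2.73e-06). DUSP2 went from 7.87 and 7.87 to 9.17 and 9.60, a change of 1.52 ± 0.12 (2.86-fold, adjusted p = 0.000333). DUSP5 went from 9.65 and 9.61 to 10.83 and 11.07, a change of 1.32 ± 0.08 (2.5-fold, adjusted p = 4.81e-05). DUSP4 showed the smallest of the 4 rises, 0.68 ± 0.08 (1.6-fold, adjusted p = 0.00675). None of the 4 had overlapping groups. SPRY4, a Sprouty inhibitor of receptor signalling, changed by 0.37 ± 0.06 and did not pass (adjusted p = 0.0711).

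ZFP36 (tristetraprolin), which binds AU-rich elements and speeds the decay of mRNAs, many of them immediate-early, was the 1 of 9 mRNA decay regulators to rise. It went from 6.67 and 6.52 to 8.29 and 8.29, a change of 1.70 ± 0.07 (3.25-fold, adjusted p = 2.73e-06). Its serum duplicates were the same to 2 decimals. In this list 8 of the 9 genes had both serum arrays above both starved arrays, against 19.1% of all genes, with a list median of 0.288. ZFP36L1 changed by 0.32 ± 0.07, ZFP36L2 by 0.39 ± 0.07 and the antiproliferative gene TOB1 by 0.49 ± 0.08, none past the threshold.

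Genes with other roles also rose. The inducible kinase and pseudokinase list held PLK2, a Polo-like kinase (0.63 ± 0.07, adjusted p = 0.00498), and TRIB1, a Tribbles pseudokinase (0.77 ± 0.07, adjusted p = 0.00119), among 17 measured. Of 13 small GTPase genes, GEM (0.96 ± 0.15, adjusted p = 0.0361) and RHOB (0.62 ± 0.07, adjusted p = 0.00648) rose. NFKBIZ, a nuclear I-kappa-B protein, was the 1 of 19 genes of the NF-kB list to rise (0.65 ± 0.10, adjusted p = 0.0408).

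In the p53 target list 3 of 24 rose, PLK2, GDF15 and the BH3-only gene PMAIP1 (0.54 ± 0.07, adjusted p = 0.0145), of which PLK2 and GDF15 also stood in other lists. GADD45B, in the same list, changed by 0.84 ± 0.15 but did not pass (adjusted p = 0.0926). SRF itself, the serum response factor, went from 8.69 and 8.76 to 9.20 and 9.35, a change of 0.55 ± 0.08 (1.46-fold, adjusted p = 0.0314), and was the 1 of 8 in its list to rise. The 19 measured SRF targets of the actin cytoskeleton did not pass, with changes from -0.14 to 0.19.

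Of the 46 genes, 10 stood in none of the 30 lists. NUAK2, an AMPK-related kinase, rose by 0.95 ± 0.12 (1.94-fold, adjusted p = 0.0121). AVPI1 rose by 0.79 ± 0.11, the mitochondrial carrier SLC25A25 by 0.70 ± 0.09, TENT5A by 0.54 ± 0.07, the HSP40 co-chaperone DNAJB4 by 0.53 ± 0.07 and SERTAD3 by 0.48 ± 0.08. LIMD1-AS1, an antisense transcript, rose from 4.96 and 5.13 to 5.73 and 6.09, a change of 0.86 ± 0.14 (adjusted p = 0.0449). A probe set shared by LIMD1-AS1 and PRMT5-DT, fitted apart from the genes, changed by 0.49 ± 0.23 (limma, unadjusted p = 0.0726). Its serum arrays read 5.37 and 5.05, against 4.61 and 4.83 starved.

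RNVU1-15 and RNVU1-19 are near-identical variant copies of the U1 small nuclear RNA, so their probe sets may not measure each copy alone. They rose by 0.90 ± 0.13 and 0.78 ± 0.10, and a second probe set of each, not the one tested, changed by 0.88 and 0.88. UGT2B10, a glucuronosyltransferase, rose from 3.23 and 3.27 to 3.76 and 3.73, levels far below the array medians.

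The serum arrays of shCDK8 cells were not interchangeable for these genes. Serum array 2 was higher than serum array 1 in 44 of the 46 genes that rose, with SERTAD3 and UGT2B10 as the exceptions, and the median gap was 0.23. Over all genes serum array 2 was higher in 49.4%, with a median gap of -0.0019. The median change of the 46 genes was 0.833 from serum array 1 and 1.11 from serum array 2, each against the mean of the starved arrays. The widest gap was 0.67, for ATF3, and 7 genes had a gap above 0.4.

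In the starved pair of shCDK8 cells, array 2 was higher in 29 of the 46 genes, with a median gap of 0.032. In shControl cells it was higher in 22 of 46 after serum (median gap -0.0032) and in 18 of 46 before it (median gap -0.039). Whether the 2 shCDK8 serum arrays differed in the time, dose or handling of the serum was not tested.

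**Figure D3:**
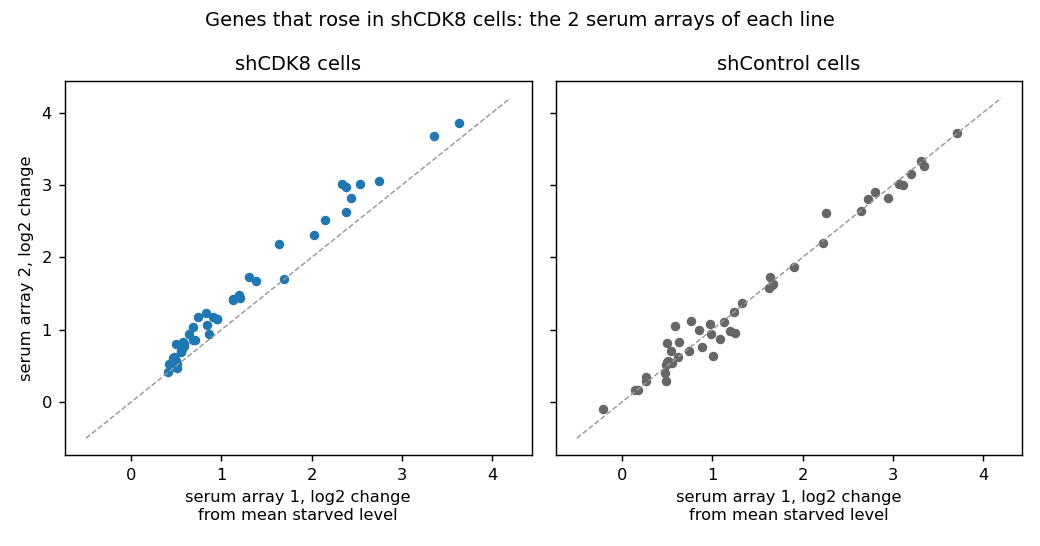
Change of the 46 genes that rose in shCDK8 cells on serum array 1 (x axis) and serum array 2 (y axis), each as log2 level minus the mean starved level of its line, in shCDK8 cells (left) and shControl cells (right); the dashed line marks equality. In shCDK8 cells 44 of 46 points lie above the line, and in shControl cells 22 of 46.

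Besides TOB1, SPRY4 and ZFP36L2, the genes just outside the threshold included GADD45A (0.45 ± 0.08, adjusted p = 0.0778), the immediate-early gene IER3 (0.42 ± 0.07, adjusted p = 0.0798), DLGAP1-AS1 (0.62 ± 0.11, adjusted p = 0.0832), ZNF805 (0.48 ± 0.08) and SNTB1 (0.39 ± 0.07). Just inside lay GEM at an adjusted p of 0.0361, NFKBIZ at 0.0408, CITED2 at 0.0435, and LIMD1-AS1 and SERTAD3 at 0.0449.

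XAGE-4, of a family of cancer-testis genes, was the 1 gene that fell, from 5.77 and 5.79 to 5.35 and 5.36, by 0.42 ± 0.06 on the log2 scale (adjusted p = 0.0301). The levels of XAGE-4 lay below the array medians. The gene lost the threshold in 5 of the 8 alternatives other than leaving out an array. It also lost the threshold whichever array was left out. FAM99A came next by p (-0.54 ± 0.09, adjusted p = 0.0605). The translation initiation factor EIF5 read 10.13 and 10.19 before serum and 9.74 and 9.70 after it (-0.44 ± 0.07, adjusted p = 0.0675). TXNL4B had a change of -0.44 ± 0.08, LOC442132 of -0.52 ± 0.09 and SURF2 of -0.39 ± 0.07, and none of these 5 passed.

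Most other groups stayed near the all-gene median. With 0.25% of all genes rising, most lists this short would hold no call. A list without a call, here and below, therefore does not stand out. The 17 measured components of the RAS, RAF, MEK and ERK cascade had a median change of 0.0183 and a range of -0.13 to 0.22. The 22 delayed and secondary serum response genes had a median of 0.0472 and none passed. None of the 13 heat shock genes (median 0.0388) or 12 housekeeping genes (0.0159) passed. The 22 cytosolic ribosomal protein genes had a median of -0.0343.

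The 21 genes of the ATF4 and stress response list gave no call in shCDK8 cells, although DDIT4, an inhibitor of mTORC1 signalling, changed by 0.46 ± 0.09 and PPP1R15A, a phosphatase subunit, by 0.39 ± 0.09. The same held for 16 TGF-beta and BMP targets, among them the ID factors ID3 (0.49 ± 0.10) and ID2 (0.44 ± 0.09). Of 22 FOXO and starvation targets 1, CITED2, rose.

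The mitotic list had a median of 0.105, with 24 of 26 genes positive and 16 with both serum arrays above both starved arrays (19.1% of all genes), though none passed. KIF11, a spindle motor, was the highest of them (0.32 ± 0.07, adjusted p = 0.199), and the list's median in shControl cells was 0.0231. MKI67, the proliferation marker, read 9.52 and 9.82 in starved and 10.00 and 9.91 in serum-treated shCDK8 cells. Its 2 starved arrays differed by about as much as its change of 0.29 ± 0.11. The 29 genes of the E2F and DNA replication list had a median of 0.0519.

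The remaining 6 measured members of the Mediator kinase module list, which share function with CDK8, also gave no call. CCNC, the cyclin partner of CDK8, changed by 0.00 ± 0.08, CDK19, its paralogue, by -0.11 ± 0.07, MED12 by 0.13 ± 0.08, MED13 by 0.19 ± 0.08, MED13L by 0.18 ± 0.08 and MED12L by 0.02 ± 0.07. Of 26 transcription elongation factors none passed (median 0.0207), and ELL2, a subunit of the super elongation complex, was highest at 0.29 ± 0.08.

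**Figure D4:**
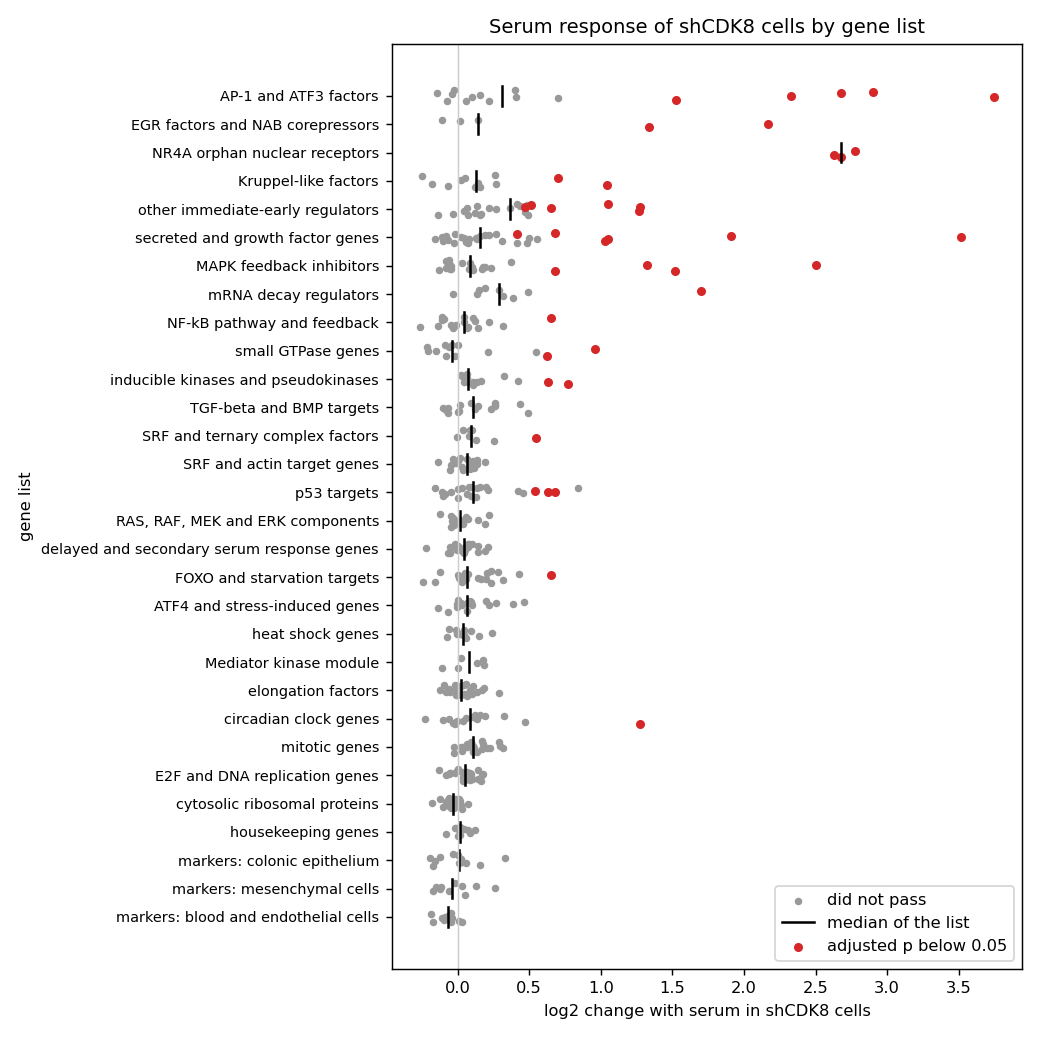
Log2 change with serum in shCDK8 cells (x axis) of every measured gene in 30 lists; red points passed at an adjusted p below 0.05, grey points did not, and black bars are list medians. The NR4A list is the only one in which all measured genes (3 of 3) are red, and the ribosomal, housekeeping and marker lists have no red point.

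The same serum treatment in shControl cells, on arrays that share none with the shCDK8 comparison but with a spread estimated from all 8 arrays, raised 78 genes (0.424% of all tested) and lowered 7 (0.038%). Of the 46 genes that rose in shCDK8 cells, 40 rose in shControl cells too, which is 87% of the shCDK8 set and 51.3% of the shControl set. XAGE-4 fell in both lines. The 41 genes called in both lines became 22 without shCDK8 starved array 1, starved array 2 or serum array 2, and 25, 24 and 27 without shControl starved array 1, starved array 2 and serum array 2. With each line fitted alone they were 24. The 85 shControl calls became 46, 33 and 40 without those 3 shControl arrays. The 6 that rose in shCDK8 cells without a call in shControl cells were CCN2, CITED2, EREG, KLF4, RGS2 and UGT2B10. The 38 genes called higher in shControl cells alone had mostly positive values in shCDK8 cells: 36 had a positive change, 34 had both serum arrays above both starved arrays (19.1% of all genes) and 31 had an unadjusted p below 0.05 (9.59% of all genes). Their median change was 0.324 in shCDK8 cells and 0.613 in shControl cells. The 38 were picked for passing in shControl cells and not in shCDK8 cells. That choice favours a larger shControl median, so the 2 medians do not compare the lines.

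These calls do not show that the lines differed, which needs the test of the difference between the 2 responses. In that test no gene passed (0% of all tested): the smallest adjusted p was 0.203, and 703 genes (3.82%) had an unadjusted p below 0.05. The median half-width of the 95% interval of the difference over all genes was 0.25. With the variance prior allowed to follow intensity, 7 genes passed, ARC, CCN2, DUSP2, EGR3, LOC728024, PLK2 and PTGS2. Without shCDK8 serum array 2, DUSP2 passed (difference -1.35, adjusted p = 0.0212). Of the 46 genes, 26 had a smaller and 20 a larger change in shCDK8 cells. The medians were 0.956 in shCDK8 and 1.01 in shControl cells. At an unadjusted p below 0.05, 12 of the 46 were lower and 7 higher in shCDK8 cells. The 46 were picked for their change in shCDK8 cells, which is part of this difference. These counts and medians are therefore tilted toward larger changes in shCDK8 cells.

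PTGS2, the inducible cyclooxygenase, had the largest difference of the genes named here. It read 4.31 and 4.65 in starved and 4.60 and 4.88 in serum-treated shCDK8 cells, while shControl cells went from 4.40 and 4.38 to 6.06 and 5.90. The groups overlapped in shCDK8 cells and were far apart in shControl cells. The changes were 0.27 ± 0.12 and 1.59, and their difference was -1.32 ± 0.18 (adjusted p = 0.203).

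DUSP2 rose in both lines, to 9.17 and 9.60 in shCDK8 cells and to 10.97 and 10.96 from 8.25 and 8.38 in shControl cells. The difference of the changes was -1.13 ± 0.17 (adjusted p = 0.203). EGR3 reached 8.27 and 8.62 in shControl cells from 5.96 and 6.05, against 7.24 and 7.53 in shCDK8 cells, a difference of -1.10 ± 0.17 (adjusted p = 0.295). ARC, a synaptic immediate-early gene, stayed at 7.61, 7.60, 7.67 and 7.68 on the 4 shCDK8 arrays and went from 7.57 and 7.74 to 8.40 and 8.41 in shControl cells. The difference for ARC was -0.68 ± 0.10 (adjusted p = 0.203).

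CCN2 went the other way. In shControl cells it read 7.25 and 7.26 before serum and 7.43 and 7.43 after it, a change of 0.17 ± 0.08, against 1.05 in shCDK8 cells. The difference was 0.87 ± 0.12 (adjusted p = 0.203). CCN1 changed by similar amounts, 3.51 and 3.72, with a difference of -0.20 ± 0.14.

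For FOS and EGR1, the starved level differed between the lines as well. FOS stood at 8.85 and 8.70 in starved shControl cells and at 12.12 and 12.04 after serum, above the shCDK8 arrays of the same treatment in both states. Its change was nevertheless larger in shCDK8 cells, by 0.44 ± 0.14 (unadjusted p = 0.0119). EGR1 showed the same order, at 10.50 and 10.56 starved and 12.17 and 12.26 after serum in shControl cells, with a change larger by 0.48 ± 0.14 in shCDK8 cells (unadjusted p = 0.00772).

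JUN started near the same level in both lines, at 7.26 and 7.0 in shControl cells, and reached 10.20 and 10.15 there, so that its change was smaller in shCDK8 cells by 0.71 on the log2 scale (-0.71 ± 0.17, unadjusted p = 0.00193). PLK2 was higher in shCDK8 cells throughout, 10.75 and 10.79 starved against 8.29 and 8.25, and rose by 0.63 against 1.12 (difference -0.50 ± 0.10, adjusted p = 0.73). RGS2 was lower in shCDK8 cells throughout, 6.76 and 6.65 starved against 9.62 and 9.49, with changes of 0.52 and 0.16. None of these 5 differences in change passed after adjustment in the main fit. That of PLK2 passed when the variance prior followed intensity. The differences in starved level were not tested here.

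**Figure D5:**
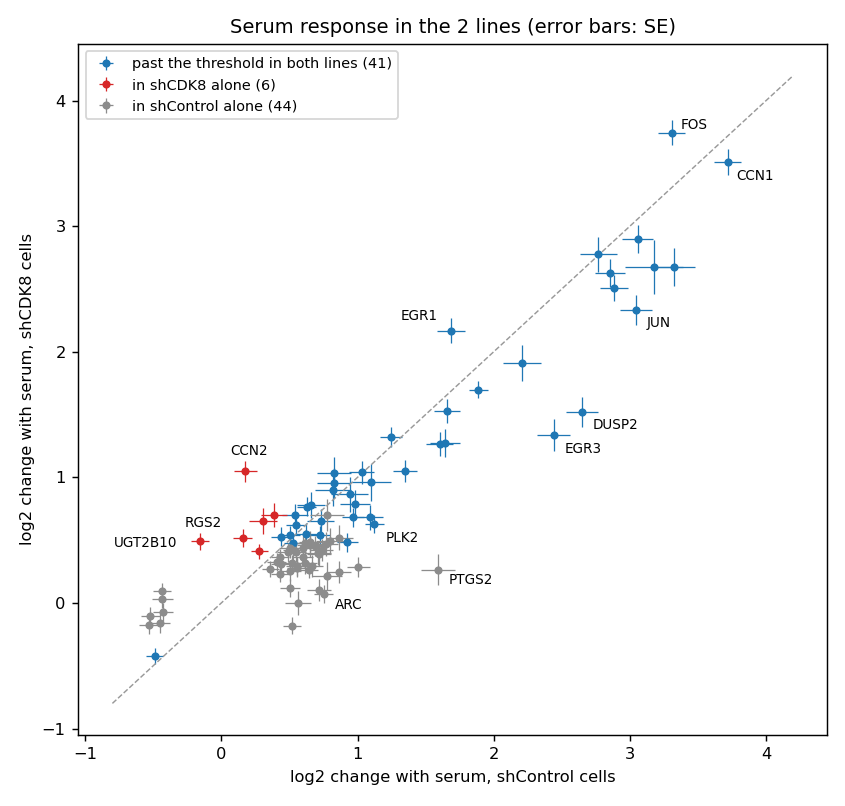
Log2 change with serum in shControl cells (x axis) and shCDK8 cells (y axis) for the genes past the threshold in either line, with SE bars and a dashed line of equality; blue genes passed in both lines, red in shCDK8 cells alone and grey in shControl cells alone. PTGS2, DUSP2 and EGR3 lie below the line and CCN2 above it, and no gene passed the test of the difference in the main fit.

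The 13837 probe sets without a single gene name were fitted apart from the genes, with their own variance prior and p-value adjustment. Their adjusted p-values are therefore not comparable with those of the genes. These probe sets gave no call by limma in shCDK8 cells, with 862 (6.23%) at an unadjusted p below 0.05. The probe set with the largest rise that names genes was shared by LOC102724428 and SIK1, near-identical copies of the salt-inducible kinase gene. The copies could therefore not be told apart. This probe set read 7.76 and 7.65 before serum and 9.11 and 9.48 after it. The change was 1.60 ± 0.14 (limma, unadjusted p = 1.63e-05, adjusted p = 0.129), and that in shControl cells was 1.74.

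The nearest measured genes on either side of the 46 were read from the RefSeq gene order. Of 92 neighbours limma called 0, but with 0.25% of all genes rising, no call among so few genes does not stand out. Their median change was 0.04, and 25 (27.2%) had both serum arrays above both starved arrays, against 19.1% of all genes. The highest was RNVU1-4 at 0.40 ± 0.08, beside RNVU1-19 and itself a U1 copy.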

How the data were processed

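Total RNA from 8 HCT116 samples (4 groups of 2) was hybridised to Affymetrix gene arrays. The deposited values are log2 levels for 33297 probe sets, which the authors made with RMA, per the submitters' processing notes; RMA gives the arrays a common distribution, so a change shared by most genes would not be seen. The array number limits the precision. The version and build were not given in the sources used here.

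Platform annotation gave 1 gene to 19460 probe sets (19429 of them in RefSeq), several to 1754 and none to the rest; the probe set with the highest mean stood for a gene, leaving 18417 genes. One mean per group was estimated from all 8 arrays together in limma 3.58.1 (R 4.3.3) with eBayes (4 residual and 5.493 prior degrees of freedom), and p-values were Benjamini-Hochberg adjusted over all genes, with a threshold of 0.05. In data simulated for the shCDK8 comparison over 18417 genes, 64% of changes of 0.5 and 90% of changes of 1 were recovered, with 6 of 183 calls false. The simulated noise was independent between arrays, and shifts ran from 0.5 to 3. The real comparison gave 47 calls, so these rates need not hold for it.

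Genes named were all that passed, the nearest on either side of the threshold, the 5 lowest p-values among falls that did not pass, up to 5 per list by size of change, and those with the smallest p for the difference between lines. The comparison and the lists were chosen with earlier results of these data known. Samples were grouped by their labels, and 16 alternatives were run.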

Additional observations from a re-analysis of the deposited data

Results flagged for a closer look

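For UGT2B10, LOC728024 and ZNF674 the serum arrays lay on opposite sides of the starved arrays in the 2 lines, though in each gene the change passed in 1 line alone. UGT2B10 rose in shCDK8 cells and changed by -0.16 in shControl cells (adjusted p = 0.539), and its change in shCDK8 cells was larger by 0.65 (adjusted p = 0.203). LOC728024 changed by -0.18 in shCDK8 cells (adjusted p = 0.469) and rose in shControl cells, with a difference of -0.70 (adjusted p = 0.203). ZNF674 changed by 0.09 ± 0.07 in shCDK8 cells (adjusted p = 0.668) and fell in shControl cells, with a difference of 0.53 (adjusted p = 0.532). The difference was tested in the limma interaction and none of the 3 passed in the main fit. With the variance prior following intensity, that of LOC728024 passed (limma, adjusted p = 0.0282).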

How the results depend on the processing

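Each of the 47 genes kept its direction under every alternative in which it was tested, and no named result reversed; the 25th percentile filter left 2 of the 47 untested. The count of 47 in shCDK8 cells was 28 with each line fitted alone, 16 when changes had to exceed 1.5-fold and 100 when the variance prior followed intensity (the trend), and 23 to 51 leaving out an array. The 41 genes changed in both lines became 24, 16 and 71 under the same settings, and 22 to 39 leaving out an array. The 18 immediate-early genes became 28 with the trend and 10 with the minimum. The 85 genes of shControl cells became 128 with the trend and 21 with the minimum, and 33 to 85 leaving out an array. The 0 genes that differed between the lines became 7 with the trend, and 0 to 1 leaving out an array. Cyclic loess, centring, averaged probe sets and a 25th percentile filter left the shCDK8 count between 47 and 56. In all settings but the minimum change, 22 of the 47 kept the threshold, and 16 kept it in all 16. The cause of these shifts was not tested. With the replicate number as a block the shCDK8 count was 41, with 39 of the 47 kept. Across genes, the difference of array 1 minus array 2 correlated between groups at -0.186 to 0.126. The number was therefore not taken as a pairing.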
